A study of Homo sapiens with 9 samples.

Results

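Aldehyde dehydrogenases were followed in A549 cells depleted of Cyclin K, the cyclin partner of the transcriptional kinases CDK12 and CDK13. The 10 genes ALDH1A1, ALDH1A3, ALDH1B1, ALDH2, ALDH3A1, ALDH3A2, ALDH3B1, ALDH7A1, ALDH9A1 and ALDH18A1 were found by their symbols, out of 31080 genes or joined genes in the expression tables, and all 10 passed the filter on low values. A549 is an established human lung adenocarcinoma cell line with a KEAP1 mutation. The cells were transfected for 48 h with a scrambled siRNA, with siCyclin K#1 or with siCyclin K#2, and total RNA was sequenced from 3 samples of each group, which the series describes as independent. Expression is given as FPKM, fragments per kilobase of exon scaled to the mapped fragments of the library. Levels of different genes can be set side by side only as far as the exon length used matches their transcripts.

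Aldehyde dehydrogenases oxidise reactive aldehydes to carboxylic acids with NAD+ or NADP+ as the acceptor of electrons. The ALDH1A enzymes make retinoic acid from retinal, the mitochondrial ALDH2 and ALDH1B1 clear acetaldehyde, and the ALDH3 enzymes handle lipid-derived and aromatic aldehydes. ALDH7A1, ALDH9A1 and ALDH18A1 serve lysine breakdown, betaine and carnitine formation, and proline synthesis, respectively. High aldehyde dehydrogenase activity is commonly used as a marker of stem-like tumor cells, and ALDH1A1 and ALDH3A1 are known to be abundant in A549 cells.

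The siRNAs lowered their target in every library. CCNK, which encodes Cyclin K, lay between 6.90 and 7.10 FPKM with scrambled siRNA, between 0.720 and 0.891 with siCyclin K#1 and between 0.802 and 0.920 with siCyclin K#2. The depth recovered from the tables was 31333749 to 33767961 reads per library, and no library stood apart from its group. Among epithelial markers, KRT8 lay between 49.7 and 104.9 FPKM and KRT18 between 69.8 and 91.0, whereas KRT19 and EPCAM did not exceed 0.279. KRT8 was higher with both siRNAs (log2 differences of 0.78 and 0.83) and the cadherin gene CDH1 with siCyclin K#1 (1.17), whereas KRT18 was lower with siCyclin K#1 (-0.17, adjusted p = 0.00905 by limma), and the part of these shifts in the results was not tested. The leukocyte, endothelial and fibroblast markers PTPRC, LYZ, PECAM1, VWF, COL1A2 and DCN did not exceed 0.0919 FPKM in any library. In bulk RNA, a change in the mRNA of each cell and a change in the share of cells that express a gene cannot be told apart.

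Promoter sequences are shown for 3 members that moved with the siRNAs and share a CCAAT box, the short element bound by the factor NF-Y. RefSeq (GRCh38.p14) promoter entries, which run from 250 bases before to 50 bases after a gene start, were matched for 8 of the 10 members, and none was matched for ALDH2 and ALDH3A1. The letters CCAAT, searched on both strands, were present for 5 members, ALDH1A1, ALDH1A3, ALDH1B1, ALDH3A2 and ALDH7A1, and in 34.6% of all 35116 promoters. In ALDH1A1, ALDH1A3 and ALDH7A1 the box read in the direction of the gene and began 74, 71 and 63 bases before the start. A box on the gene's strand that begins 50 to 90 bases before the start, a window chosen after these positions were seen, was found in 5.89% of all promoters. The runs below cover 120 bases before and 20 bases after the start, 5′ to 3′ on the strand of the gene, with the CCAAT box in capitals. They come from chr9:72953034-72953173 (minus strand) for ALDH1A1, chr15:100879711-100879850 (plus strand) for ALDH1A3 and chr5:126595200-126595339 (minus strand) for ALDH7A1.
ALDH1A1: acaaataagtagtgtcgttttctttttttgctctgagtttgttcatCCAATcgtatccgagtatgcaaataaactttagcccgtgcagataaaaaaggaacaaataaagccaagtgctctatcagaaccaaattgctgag
ALDH1A3: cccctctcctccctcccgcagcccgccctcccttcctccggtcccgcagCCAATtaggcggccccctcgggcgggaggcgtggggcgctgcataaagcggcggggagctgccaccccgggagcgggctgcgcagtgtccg
ALDH7A1: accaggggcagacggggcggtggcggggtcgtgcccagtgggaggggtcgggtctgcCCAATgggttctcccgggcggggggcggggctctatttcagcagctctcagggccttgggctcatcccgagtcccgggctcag
The 3 genes did not move alike: ALDH1A1 and ALDH7A1 rose with both siRNAs and ALDH1A3 fell, as the values given further on show. The core of the antioxidant response element, TGACNNNGC, was in none of the 8 matched members' windows and in 13.3% of all promoters. The core of the xenobiotic response element, GCGTG, was in the windows of ALDH1A3 and ALDH3A2 and in 36.5% of all promoters.

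With scrambled siRNA, the levels of the family spanned 2 orders of magnitude. ALDH1A1 was far above the rest at 549.9 ± 20.4 FPKM (SD, n = 3), followed by ALDH3A1 at 60.1 ± 3.34, ALDH9A1 at 47.5 ± 1.45 and ALDH1B1 at 41.3 ± 1.34. ALDH18A1, ALDH3A2 and ALDH3B1 followed at 27.1 ± 0.839, 19.6 ± 0.529 and 10.4 ± 0.428 FPKM. The lowest 3 members were ALDH2 at 5.52 ± 0.162, ALDH1A3 at 4.52 ± 0.294 and ALDH7A1 at 4.01 ± 0.0123 FPKM. No neighbours in this order overlapped between their libraries. The order also rests on the exon length behind each FPKM. For ALDH7A1 the values gave whole reads at 17970 exon bases, while its longest transcript has 4964. It had 2424, 2300 and 2338 reads with scrambled siRNA, beside 2255, 2182 and 2346 for ALDH3B1.

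**Figure D1:**
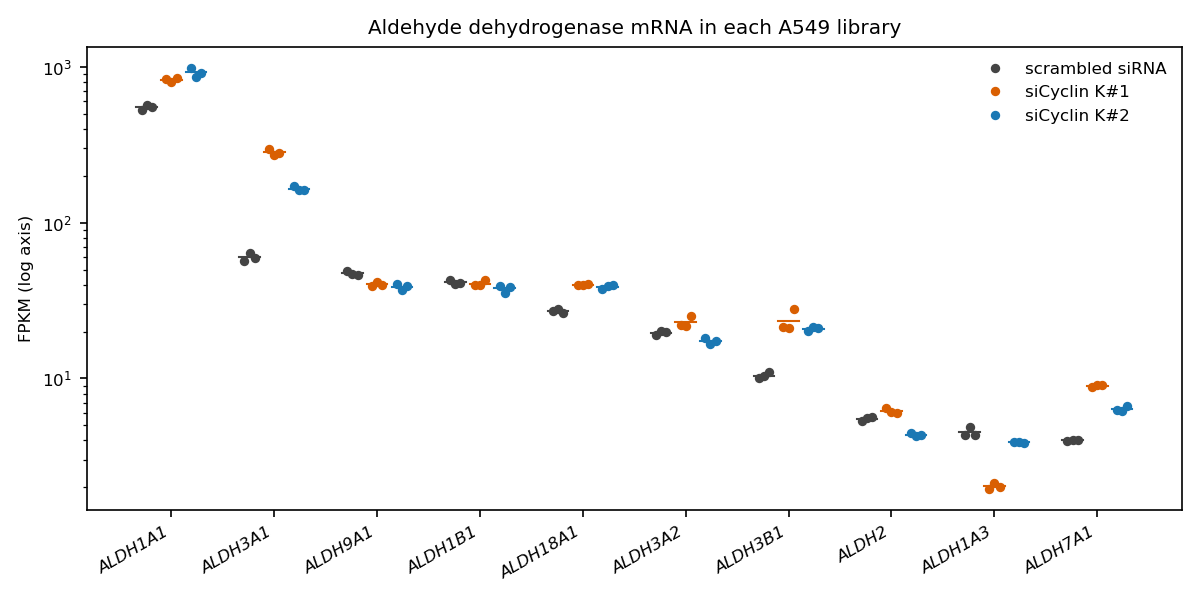
FPKM (log axis) of each aldehyde dehydrogenase in the 9 libraries, as points colored by siRNA, with a horizontal line at each group mean; genes are ordered by their mean with scrambled siRNA. ALDH1A1 is highest in each group, ALDH3A1 moves from 57.0 to 63.6 FPKM up to 270.1 to 295.7 with siCyclin K#1, and ALDH1A3 becomes the lowest member with either siRNA.

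To identify which members responded to depletion of Cyclin K, each siRNA was compared with the scrambled siRNA. ALDH3A1, ALDH3B1, ALDH7A1, ALDH1A1 and ALDH18A1 rose with both siRNAs, between 1.4-fold and 4.7-fold on the fitted scale. ALDH9A1 and ALDH1A3 fell with both, although the ALDH1A3 call with siCyclin K#2 was lost in 9 of 19 alternative settings. ALDH2 rose slightly with siCyclin K#1 and fell with siCyclin K#2, ALDH3A2 rose slightly with siCyclin K#1 and did not pass with siCyclin K#2, and ALDH1B1 passed with neither as reported. Both comparisons use the same 3 scrambled libraries.

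Adjusted p-values below are from limma with Benjamini-Hochberg adjustment over 21048 genes, and differences are on the log2(FPKM + 0.1) scale with their standard error. By an adjusted p under 0.05, 9 of 10 members were called with siCyclin K#1, 7 higher and 2 lower, whereas 44.8% of all genes tested were called, 26.8% higher and 18.1% lower. With siCyclin K#2, 8 of 10 members were called, 5 higher and 3 lower, against 34.9% of all genes, 19.8% higher and 15.2% lower. All genes tested include many at low levels. In a fit of the 11243 genes with a mean of at least 1 FPKM, as all 10 members have, a larger share was called. It was 7507 of 11243 genes with siCyclin K#1 and 6434 of 11243 with siCyclin K#2. Over all genes tested it was 9435 and 7353 of 21048. The members' median log2 difference was 0.39 with siCyclin K#1 and 0.19 with siCyclin K#2, beside medians over all genes of 0.10 and 0.014. The study's methods ask for more than 3-fold at a p, before adjustment, under 0.01, while its results text names a lower fold. At the thresholds of the methods, ALDH3A1 with siCyclin K#1 was the only member called, beside 4.67% of all genes in that comparison. With siCyclin K#2 no member passed them by limma, beside 1.94% of all genes. In that comparison, 10 of 10 members and 43.0% of all genes had an unadjusted p under 0.05. Of the members, 5 were called higher and 2 lower with both siRNAs, as were 15.4% and 10.3% of all genes (25.6% in the same direction). The libraries of siRNA and control did not overlap for 9 of 10 members with siCyclin K#1 and for 10 of 10 with siCyclin K#2, and for 53.5% and 46.8% of all genes. Of the siCyclin K#1 calls over all genes, 59.7% were higher as deposited and 49.7% after median-ratio rescaling, which moved the median of all genes from 0.10 to -0.002.

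**Figure D2:**
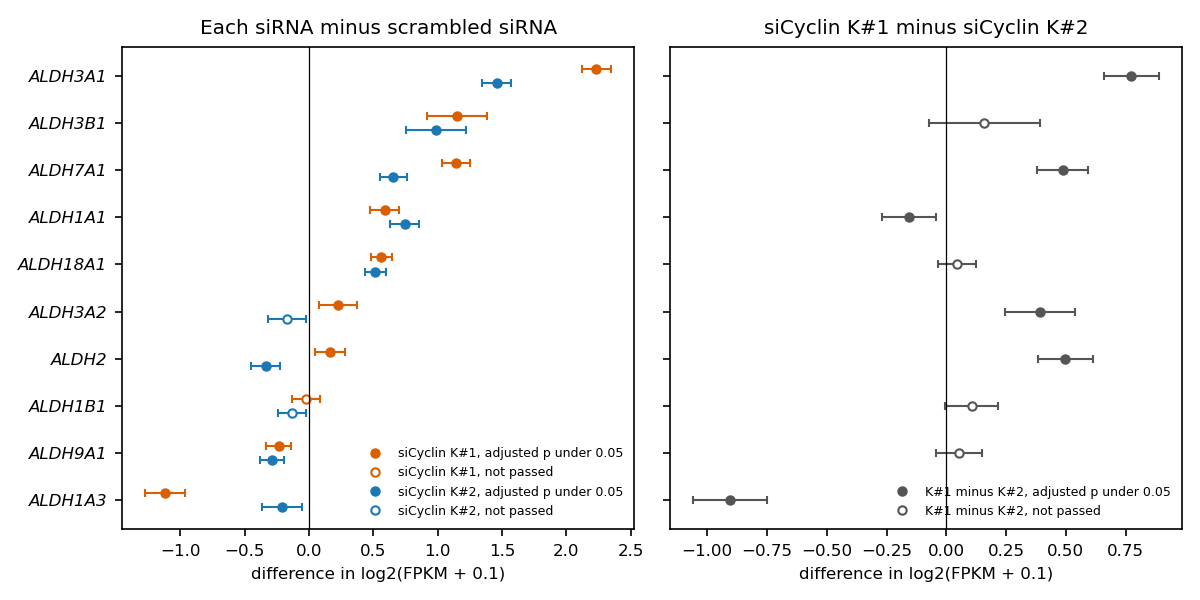
Differences in log2(FPKM + 0.1) of each aldehyde dehydrogenase, left for each siRNA minus scrambled siRNA and right for siCyclin K#1 minus siCyclin K#2; points are limma estimates, bars 95% confidence intervals, and filled points have an adjusted p under 0.05. ALDH3A1 has the highest point with either siRNA (2.23 and 1.46), and ALDH2 and ALDH3A2 lie on opposite sides of 0 for the siRNAs.

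Among the enzymes that make retinoic acid, ALDH1A1 and ALDH1A3 moved in opposite directions. ALDH1A1 (chr9:72900662-73080442, minus strand, GRCh38), the main cytosolic retinal dehydrogenase of these cells by level, was at 529.2, 569.9 and 550.4 FPKM with scrambled siRNA. It reached 832.0, 801.5 and 845.0 FPKM with siCyclin K#1, while the siCyclin K#2 libraries were at 982.4, 865.0 and 915.1. Every library of either siRNA was above every scrambled library. The log2 difference was 0.59 ± 0.049 (SE, adjusted p = 1.59e-05) with siCyclin K#1 and 0.74 ± 0.049 (adjusted p = 7.28e-06) with siCyclin K#2.

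ALDH1A3 (chr15:100877714-100916626, plus strand), a second retinal dehydrogenase, shares its row with 4 neighbouring loci, AC015712.1, AC015712.4, AC015712.5 and AC015712.6, so its values include any reads from them. The row was at 4.36, 4.86 and 4.34 FPKM with scrambled siRNA and at 1.96, 2.13 and 2.00 with siCyclin K#1, less than any control library. With siCyclin K#2 it was at 3.93, 3.90 and 3.83 FPKM, below the control libraries by a narrow margin. It fell by 1.12 ± 0.067 (SE, adjusted p = 2.22e-06) on the log2 scale with siCyclin K#1. With siCyclin K#2 the difference was -0.21 ± 0.067 (adjusted p = 0.0394). The siCyclin K#2 call was lost when any library of the scrambled or siCyclin K#2 group was left out, or replicate 3 of siCyclin K#1, with differences from -0.24 to -0.16 and adjusted p from 0.0521 to 0.123; over all 19 settings the adjusted p ranged from 0.0061 to 0.123.

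Of the 2 mitochondrial acetaldehyde enzymes, ALDH2 moved in opposite directions with the siRNAs and ALDH1B1 passed with neither as reported. ALDH2 (chr12:111766887-111817529, plus strand), the main enzyme of acetaldehyde clearance after alcohol intake, was at 5.36, 5.54 and 5.68 FPKM with scrambled siRNA. With siCyclin K#1 it was at 6.43, 6.10 and 6.04 FPKM, and with siCyclin K#2 at 4.44, 4.30 and 4.32. The 3 groups did not overlap, with siCyclin K#1 above and siCyclin K#2 below the control. The difference was 0.16 ± 0.050 (adjusted p = 0.0285) with siCyclin K#1, and with siCyclin K#2 ALDH2 fell by 0.34 ± 0.050 (adjusted p = 8.67e-04). After median-ratio rescaling the siCyclin K#1 difference was 0.041, and the call was lost in 8 of 19 settings, with adjusted p from 0.0157 to 0.555 over all of them. It was lost without scrambled replicate 1 (0.14), scrambled replicate 2 (0.16), siCyclin K#1 replicate 1 (0.13) or siCyclin K#1 replicate 2 (0.17). In a check of 100-base windows, 6.21% of the longest ALDH2 transcript also occurred in F2R or AC002996.1.

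ALDH1B1 (chr9:38392664-38398661, plus strand), which is related to ALDH2 and also mitochondrial, was at 42.8, 40.2 and 41.0 FPKM with scrambled siRNA. The siCyclin K#1 libraries, at 39.7, 39.8 and 42.6 FPKM, overlapped the control, and the siCyclin K#2 libraries, at 39.1, 35.6 and 38.7, lay below it. The difference with siCyclin K#1 was -0.024 with a 95% confidence interval from -0.13 to 0.086 (adjusted p = 0.734), and it was above 0 after quantile normalization or without scrambled replicate 1. The difference with siCyclin K#2 was -0.13 ± 0.048 (adjusted p = 0.0691), and it passed after median-ratio rescaling (-0.18) and among genes with a mean of at least 1 FPKM (-0.13), with adjusted p from 0.0305 to 0.197 over 19 settings.

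The ALDH3 enzymes differed widely among themselves, from the highest rise of the family in ALDH3A1 to small differences in ALDH3A2. ALDH3A1 (chr17:19737984-19748943, minus strand), a cytosolic enzyme of aromatic and lipid-peroxidation aldehydes that is known from the cornea and from drug-resistant tumor cells, was at 57.0, 63.6 and 59.7 FPKM with scrambled siRNA. It reached 295.7, 270.1 and 281.4 FPKM with siCyclin K#1, while the siCyclin K#2 libraries were at 171.3, 161.0 and 162.8. The groups were far apart, and the siCyclin K#1 libraries were the highest. The means were 4.70 and 2.75 times the scrambled mean, with log2 differences of 2.23 ± 0.050 (adjusted p = 1.67e-08) and 1.46 ± 0.050 (adjusted p = 2.57e-07). By absolute log2 difference it ranked 272 among the 21048 genes with siCyclin K#1 and 711 with siCyclin K#2.

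ALDH3A2 (chr17:19648136-19677598, plus strand), the fatty aldehyde dehydrogenase whose loss causes Sjögren-Larsson syndrome, was at 19.0, 20.1 and 19.7 FPKM with scrambled siRNA. It was at 22.0, 21.6 and 25.3 FPKM with siCyclin K#1 and at 18.2, 16.7 and 17.3 with siCyclin K#2. All siCyclin K#1 libraries were above and all siCyclin K#2 libraries below the control libraries. The difference was 0.22 ± 0.064 (adjusted p = 0.020) with siCyclin K#1 and -0.17 ± 0.064 (adjusted p = 0.0759) with siCyclin K#2. After median-ratio rescaling the siCyclin K#1 difference was 0.10 and no longer passed, nor did it without scrambled replicate 1 (0.20) or in a fit without a variance trend (0.22). The siCyclin K#2 difference passed in 4 of 19 settings, which were median-ratio rescaling (-0.22), quantile normalization (-0.22), a fit of the 2 groups alone (-0.17) and the leaving out of siCyclin K#1 replicate 3 (-0.17). Its adjusted p ranged from 0.0196 to 0.197 over all of them.

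ALDH3A1 and ALDH3A2 are neighbours on chromosome 17, 60385 bases apart, with SLC47A2 between them. These neighbours were named after their values were seen. SLC47A2, a drug exporter gene, was near the floor at 0.291 ± 0.0678 FPKM with scrambled siRNA and passed with neither siRNA (log2 differences of -0.11 and -0.44, adjusted p = 0.717 and 0.157). Beyond ALDH3A2, the related exporter SLC47A1 fell with siCyclin K#1 (-0.75 ± 0.215, adjusted p = 0.020), from 7.07 ± 2.23 to 4.03 ± 0.440 FPKM. That call was lost without scrambled replicate 2 (-0.56), scrambled replicate 3 (-0.66) or siCyclin K#1 replicate 1 (-0.67). With siCyclin K#2 the SLC47A1 difference was -0.47 ± 0.215 (adjusted p = 0.135), and without scrambled replicate 1 it was -0.75 and passed. Beyond ALDH3A1, the autophagy kinase gene ULK2 rose by 0.28 ± 0.060 (adjusted p = 0.00433) and 0.72 ± 0.060 (adjusted p = 2.54e-05); the first was lost under both rescalings.

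ALDH3B1 (chr11:68008578-68029282, plus strand), a membrane-associated enzyme of lipid aldehydes, was at 10.1, 10.3 and 10.9 FPKM with scrambled siRNA. It was at 21.3, 21.0 and 28.1 FPKM with siCyclin K#1, the third library being above the other 2, and at 20.2, 21.3 and 21.0 with siCyclin K#2. All 6 knockdown libraries were clearly above the control. The log2 differences were 1.15 ± 0.102 (adjusted p = 2.35e-05) and 0.99 ± 0.102 (adjusted p = 9.47e-05).

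Of the members with a place in amino acid metabolism, ALDH7A1 and ALDH18A1 rose and ALDH9A1 fell. ALDH7A1 (chr5:126531200-126595418, minus strand), antiquitin, oxidises an aldehyde of the lysine pathway and is mutated in pyridoxine-dependent epilepsy. It was at 4.0, 4.02 and 4.01 FPKM with scrambled siRNA, at 8.78, 9.11 and 9.03 with siCyclin K#1 and at 6.30, 6.18 and 6.65 with siCyclin K#2. The 3 groups did not overlap, siCyclin K#1 being highest. The log2 differences were 1.14 ± 0.047 (adjusted p = 2.58e-07) and 0.66 ± 0.047 (adjusted p = 1.12e-05), and 1.32% of the windows of its longest transcript also occurred in the pseudogene ALDH7A1P1.

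ALDH18A1 (chr10:95605929-95656706, minus strand) encodes pyrroline-5-carboxylate synthase, which starts proline and ornithine synthesis from glutamate by reduction, not oxidation. It was at 27.0, 27.9 and 26.2 FPKM with scrambled siRNA, at 39.8, 40.0 and 40.3 with siCyclin K#1 and at 37.6, 39.1 and 39.6 with siCyclin K#2. Every knockdown library was above the control. The log2 differences were 0.56 ± 0.035 (adjusted p = 2.55e-06) and 0.52 ± 0.035 (adjusted p = 7.80e-06).

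ALDH9A1 (chr1:165662216-165698863, minus strand), which oxidises the aldehyde precursors of betaine, GABA and carnitine, shares its row with the small RNA family entry RF00019. It was at 49.1, 47.0 and 46.4 FPKM with scrambled siRNA, at 39.4, 41.5 and 40.0 with siCyclin K#1 and at 40.5, 37.1 and 39.1 with siCyclin K#2. All knockdown libraries were below the control libraries. ALDH9A1 fell by 0.24 ± 0.042 (adjusted p = 0.00162) with siCyclin K#1 and by 0.29 ± 0.042 (adjusted p = 7.50e-04) with siCyclin K#2.

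The make-up of the family by FPKM also shifted. The 10 members summed to 769.9 ± 22.8 FPKM in the scrambled group, 1293 ± 35.6 in the siCyclin K#1 group and 1254 ± 67.1 in the siCyclin K#2 group (SD, n = 3). The library sums ran from 747.9 to 793.4, from 1253 to 1320 and from 1190 to 1324 FPKM, so that both knockdown groups lay above the control and overlapped each other. ALDH1A1 supplied 71.4 ± 0.574% of the sum in the control, 63.9 ± 0.203% after siCyclin K#1 and 73.4 ± 0.765% after siCyclin K#2. The share of ALDH3A1 was 7.80 ± 0.203%, 21.8 ± 0.691% and 13.2 ± 0.314%. ALDH1A1 exceeded ALDH3A1 by a factor of 9.16 ± 0.175 in the control, 2.93 ± 0.10 with siCyclin K#1 and 5.58 ± 0.185 with siCyclin K#2. These sums are given as a description, without a test.

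**Figure D3:**
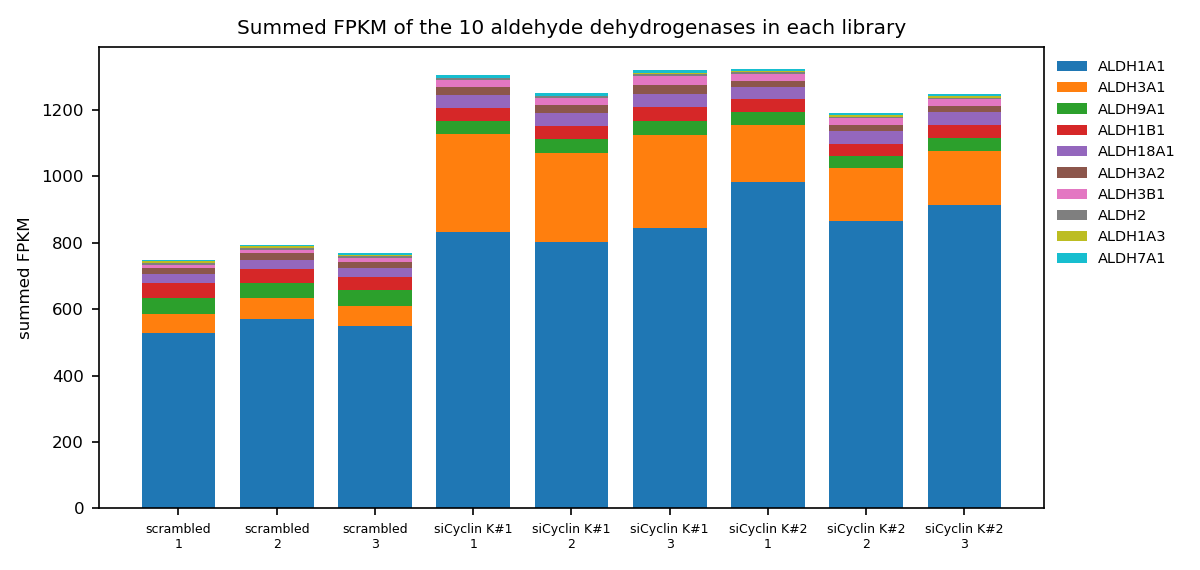
Summed FPKM of the 10 aldehyde dehydrogenases in each library as stacked bars, 1 color per gene, grouped by siRNA. Both knockdown groups reach 1190 FPKM or more against 793.4 or less with scrambled siRNA, and the ALDH3A1 segment is tallest with siCyclin K#1.

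The order of levels changed below the top 2 genes. With siCyclin K#1, ALDH1A1 and ALDH3A1 were followed by ALDH1B1, ALDH9A1 and ALDH18A1 at 40.7 ± 1.63, 40.3 ± 1.05 and 40.0 ± 0.268 FPKM, which overlapped, and then by ALDH3B1 and ALDH3A2 at 23.5 ± 4.02 and 23.0 ± 2.06, which also overlapped. With siCyclin K#2, ALDH9A1, ALDH18A1 and ALDH1B1 overlapped at 38.9 ± 1.74, 38.8 ± 1.08 and 37.8 ± 1.92 FPKM, and ALDH3B1 lay above ALDH3A2 at 20.8 ± 0.549 and 17.4 ± 0.749. With either siRNA the lowest 3 genes by FPKM were ALDH7A1, ALDH2 and ALDH1A3, in that order and without overlap.

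The siRNAs were then compared with each other, which asks directly whether a member responded differently to them. By an adjusted p under 0.05, 6 of 10 members differed, 4 higher with siCyclin K#1 and 2 higher with siCyclin K#2, and 29.4% of all genes were called, 17.1% higher with siCyclin K#1 and 12.3% lower. Over all genes, 58.2% of these calls were higher with siCyclin K#1 as deposited and 46.7% after median-ratio rescaling. In a fit of the 11243 genes with a mean of at least 1 FPKM, 5476 of 11243 were called between the siRNAs. That is a larger share than the 6191 of 21048 over all genes tested. The libraries of the siRNAs did not overlap for 8 of 10 members and for 42.7% of all genes. No member passed the study's thresholds by limma in this comparison, where 1.53% of all genes did. An unadjusted p under 0.05 was found for 6 of 10 members and 38.4% of all genes. The median of the members was 0.13 and that of all genes 0.084. CCNK itself differed by -0.056 between the siRNAs (adjusted p = 0.726).

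ALDH3A1 and ALDH7A1 rose more with siCyclin K#1, by 0.77 ± 0.050 (adjusted p = 9.59e-06) and 0.49 ± 0.047 (adjusted p = 9.57e-05) on the log2 scale. ALDH2 and ALDH3A2, which lay on opposite sides of the control, were higher with siCyclin K#1 by 0.50 ± 0.050 (adjusted p = 1.26e-04) and 0.39 ± 0.064 (adjusted p = 0.00191). Over all genes, 1.82% were called with both siRNAs in opposite directions, as ALDH2 was. ALDH1A3 was lower with siCyclin K#1 by 0.91, a difference of -0.91 ± 0.067 (adjusted p = 2.19e-05). ALDH1A1 differed by -0.16 ± 0.049 (adjusted p = 0.0443), and this call was lost in 11 of 19 settings, with adjusted p from 0.00862 to 1.000. Among them were the leaving out of scrambled replicate 3, of any siCyclin K#1 library, or of replicate 1 or 3 of siCyclin K#2, with differences from -0.17 to -0.11.

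The difference between the siRNAs did not pass the test for the other 4 members with the values as deposited. The 95% confidence interval of the difference was -0.034 to 0.12 for ALDH18A1 (adjusted p = 0.386) and -0.074 to 0.39 for ALDH3B1 (adjusted p = 0.298). The estimates were 0.051 ± 0.042 for ALDH9A1 (adjusted p = 0.425) and 0.11 ± 0.048 for ALDH1B1 (adjusted p = 0.143). The direction for ALDH9A1 and ALDH18A1 turned under median-ratio rescaling. Under quantile normalization the differences of ALDH18A1 (0.116, adjusted p = 0.0360) and ALDH1B1 (0.166, adjusted p = 0.0330) passed, and over 19 settings their adjusted p ranged from 0.0360 to 0.707 and from 0.0330 to 0.717.

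Outside the 10 members, 9 further aldehyde dehydrogenase genes were looked for, 8 had a row, and 5 passed the filter. ALDH1L2, the mitochondrial formyltetrahydrofolate dehydrogenase, rose from 0.780 ± 0.0139 FPKM to 2.24 ± 0.315 with siCyclin K#1 (1.40 ± 0.114, adjusted p = 1.37e-05) and to 1.24 ± 0.0433 with siCyclin K#2 (0.61 ± 0.114, adjusted p = 0.00303). ALDH5A1, the succinic semialdehyde dehydrogenase of GABA breakdown, rose from 3.17 ± 0.338 FPKM by 0.62 ± 0.095 (adjusted p = 7.21e-04) and 0.53 ± 0.095. ALDH6A1, the methylmalonate semialdehyde dehydrogenase of valine breakdown, rose from 1.36 ± 0.211 FPKM by 0.89 ± 0.118 (adjusted p = 2.74e-04) with siCyclin K#1, and differed by 0.28 ± 0.118 (adjusted p = 0.103) with siCyclin K#2.

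The other 2 tested genes stand on joined rows. The row of ALDH4A1, the proline breakdown enzyme, also holds IFFO2, TAS1R2 and AL080251.1, and it rose by 1.29 ± 0.089 and 0.83 ± 0.089. The row of ALDH16A1 also holds the ribosomal protein gene RPL13A, FLT3LG and AC010619.1 and AC010619.2, and it fell by 0.48 ± 0.032 and 0.47 ± 0.032, so that its 144.2 ± 5.27 FPKM cannot be read as ALDH16A1. ALDH1A2, the third retinal dehydrogenase, had 4, 3 and 1 reads with scrambled siRNA, 17, 14 and 23 after siCyclin K#1, and 10, 13 and 2 after siCyclin K#2, too few to be tested. ALDH1L1 and ALDH8A1 had at most 3 and 8 reads in any library. ALDH3B2 was not analysed here.

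The enzymes and receptors around the ALDH1A step were examined next. Of 7 tested alcohol and retinol dehydrogenases, which form retinal or reduce it, 3 rose and 1 fell with siCyclin K#1, and 1 rose and 2 fell with siCyclin K#2 (medians 0.037 and -0.10). DHRS3, a retinal reductase whose row also holds AC254633.1, went from 6.85, 6.65 and 6.78 FPKM to 14.6, 14.8 and 14.9 after siCyclin K#1 and 12.8, 12.5 and 12.2 after siCyclin K#2, a rise of 1.12 ± 0.037 and 0.88 ± 0.037. RDH13, a mitochondrial retinal reductase, fell by 0.25 ± 0.089 (adjusted p = 0.0499) and 0.31 ± 0.089 (adjusted p = 0.0256), and the first call was lost when any library but scrambled replicate 3 was left out (-0.26 to -0.19). The second was lost without scrambled replicate 1 (-0.30), scrambled replicate 2 (-0.25), siCyclin K#2 replicate 1 (-0.30) or siCyclin K#2 replicate 3 (-0.29).

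Of 9 tested genes of retinoid carriers, receptors and degradation, 4 rose and 2 fell with either siRNA (medians 0.38 and 0.44). Over all genes, 44.8% were called with siCyclin K#1 and 34.9% with siCyclin K#2. RARG, a retinoic acid receptor, went from 2.50 ± 0.207 FPKM to 7.71 ± 0.641 and 5.68 ± 0.260 (1.59 ± 0.083 and 1.16 ± 0.083, adjusted p = 9.44e-07 and 1.12e-05). RXRB, a partner of the retinoic acid receptors, rose by 1.20 ± 0.081 and 1.14 ± 0.081. FABP5, which carries fatty acids and retinoic acid, fell by 0.72 ± 0.068 and 0.25 ± 0.068, the second of which was lost without scrambled replicate 1 (-0.22), scrambled replicate 3 (-0.24) or siCyclin K#2 replicate 1 (-0.20). STRA6, the receptor for plasma retinol-binding protein, fell by 0.32 ± 0.066 and 0.75 ± 0.066.

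The aldo-keto and carbonyl reductases, some of which reduce aldehydes, moved in both directions. Of 14 tested aldo-keto and carbonyl reductases, 4 rose and 5 fell with siCyclin K#1 and 5 rose and 3 fell with siCyclin K#2 (medians -0.23 and 0.034). The share of all genes called was 44.8% with siCyclin K#1 and 34.9% with siCyclin K#2. AKR1C2, a 3-ketosteroid reductase with near-identical paralogs that may share its reads, went from 81.0 ± 10.2 FPKM to 219.1 ± 29.8 and 188.6 ± 15.5 (1.43 ± 0.121 and 1.22 ± 0.121, adjusted p = 1.75e-05 and 7.56e-05). The joined row of AKR1B10 and AKR1B15, reductases of retinal and other aldehydes, fell from 326.7 ± 5.19 FPKM to 142.0 ± 12.8 and 186.8 ± 5.24 (-1.21 ± 0.059 and -0.81 ± 0.059). PTGR1, which reduces unsaturated aldehydes and prostaglandins, fell from 100.6 ± 1.79 FPKM to 37.1 ± 1.40 and 50.4 ± 0.437 (-1.44 ± 0.034 and -0.99 ± 0.034). The carbonyl reductase gene CBR4 rose by 0.80 ± 0.064 and 0.79 ± 0.064.

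In the pathways of the metabolic members, 4 of 7 proline genes fell while ALDH18A1 rose. Of 7 tested genes of proline and ornithine metabolism, 1 rose and 4 fell with siCyclin K#1, and 4 fell and 3 did not pass with siCyclin K#2 (medians -0.31 and -0.28). Over all genes, 18.1% were called lower with siCyclin K#1 and 15.2% with siCyclin K#2. PYCR3, which makes proline in the last step, fell by 0.85 ± 0.151 and 0.73 ± 0.151. Of 7 tested genes of lysine, betaine and carnitine metabolism, 3 rose and 1 fell with siCyclin K#1 and 4 rose and 1 fell with siCyclin K#2 (medians 0.31 and 0.24). In either direction, 44.8% of all genes were called with siCyclin K#1 and 34.9% with siCyclin K#2. DHTKD1, of a later lysine step, rose by 0.59 ± 0.059 and 0.29 ± 0.059, and GCDH, the glutaryl-CoA dehydrogenase, fell by 0.57 ± 0.081 and 0.87 ± 0.081.

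TMLHE, which starts carnitine synthesis, rose by 0.31 ± 0.065 and 0.24 ± 0.065. The first call was lost under quantile normalization, and the second under both rescalings and without scrambled replicate 1 (0.23), scrambled replicate 2 (0.24), siCyclin K#2 replicate 1 (0.24) or siCyclin K#2 replicate 3 (0.23). Of 9 tested genes listed for long-chain aldehyde formation and the steps around it, 3 rose and 1 fell with siCyclin K#1. With siCyclin K#2, 3 rose and 2 fell (medians -0.035 and -0.028). The share of all genes called was 44.8% with siCyclin K#1 and 34.9% with siCyclin K#2. SGPL1, the sphingosine phosphate lyase, rose by 0.64 ± 0.050 and 0.34 ± 0.050, and PHYH, of phytanic acid breakdown, by 0.41 ± 0.092 and 0.74 ± 0.092. SPHK1, a sphingosine kinase, was at 1.82 ± 0.484 FPKM and fell by 0.84 ± 0.299 (adjusted p = 0.0486) and 1.09 ± 0.299 (adjusted p = 0.0204). The siCyclin K#1 call was lost when any scrambled or siCyclin K#1 library other than scrambled replicate 3 was left out, with differences from -0.88 to -0.67, or without siCyclin K#2 replicate 3 (-0.84). The siCyclin K#2 call was lost without scrambled replicate 1 (-0.92), scrambled replicate 2 (-1.07) or siCyclin K#2 replicate 3 (-1.10).

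**Figure D4:**
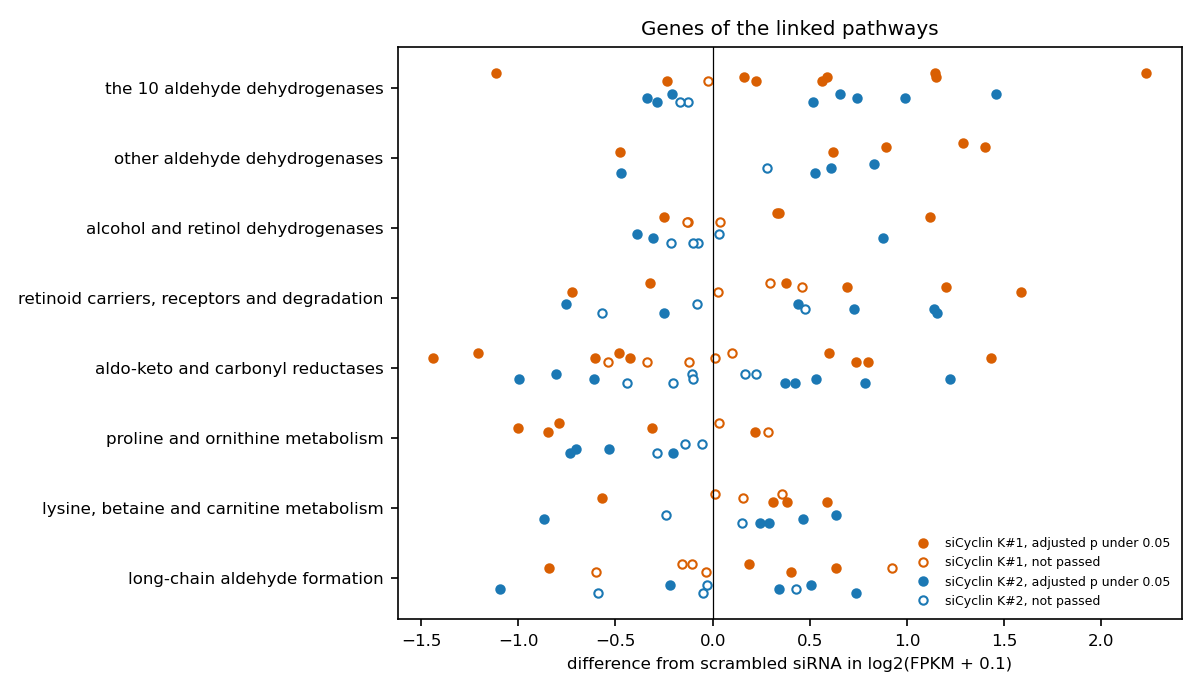
Differences from scrambled siRNA in log2(FPKM + 0.1) of each tested gene of the aldehyde dehydrogenase family and the linked pathways, 1 row per list, orange for siCyclin K#1 and blue for siCyclin K#2; filled points have an adjusted p under 0.05, and error bars are not drawn. Proline and ornithine genes lie mostly left of 0, with 4 of 7 lower with either siRNA. Over all genes, 18.1% were called lower with siCyclin K#1 and 15.2% with siCyclin K#2. The points of the reductases spread to both sides.

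The genes with the most similar pattern were sought by the root mean square distance of log2(FPKM + 0.1), less the scrambled mean, over the 9 libraries and 11242 other genes with a mean of at least 1 FPKM. For ALDH1A1 the nearest were TXLNA (distance 0.0509), BCL9L (0.0536) and HSPD1 (0.0563). TXLNA, the taxilin alpha gene, was 0.61 and 0.76 above the control with siCyclin K#1 and siCyclin K#2, beside 0.59 and 0.74 for ALDH1A1. For ALDH3A1 the nearest were SIPA1L2 (0.0850), FDXR (0.0969) and TCF7L1 (0.113). FDXR, the mitochondrial ferredoxin reductase gene, went from 7.72 to 38.3 and 20.1 FPKM. TCF7L1, a TCF factor gene, went from 0.386 to 2.31 and 1.34 FPKM.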

How the data were processed

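Total RNA of A549 cells was sequenced by the authors in 9 libraries (Illumina paired-end), and gene FPKM values were deposited by the authors, made with StringTie 1.3.3b; the aligner and build are not given in the sources used here, and gene positions in the files equal those of GENCODE 29 (GRCh38). The labels and the methods name different culture media. Rows of a gene were summed, 25125 of 56252 features were dropped because they name no reference gene, and 1344 rows join several genes. The 21048 genes that reached 0.1 FPKM in 3 or more libraries entered 1 limma 3.58.1 fit (R 4.3.3) of log2(FPKM + 0.1) over the 3 groups, which was first tested on simulated data. Differences on this scale understate changes of low genes. Depth was recovered from low FPKM values as whole-read steps (84.6% to 85.6% of values within 0.05 reads of a whole number). FPKM makes values relative to each library's total. The members, lists and tests were chosen with earlier results of these data known. Named were all members, other aldehyde dehydrogenases, CCNK, the 3 nearest patterns, and from each list at most 2 higher and 2 lower genes with the largest mean difference that passed with both siRNAs at a mean of at least 1 FPKM. One gene that this rule names is not reported here. Alternatives were other pseudocounts, filters, scalings, row choices and fits, and leaving out each library.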

Additional observations from a re-analysis of the deposited data

Results flagged for a closer look

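The responses to the 2 siRNAs differed by the direct limma test (adjusted p under 0.05 over all genes) for 6 of the 10 members and 3 further aldehyde dehydrogenases. As log2 differences of siCyclin K#1 minus siCyclin K#2 these were -0.16 for ALDH1A1, -0.91 for ALDH1A3, 0.50 for ALDH2, 0.77 for ALDH3A1, 0.39 for ALDH3A2 and 0.49 for ALDH7A1. They were 0.79 ± 0.114 for ALDH1L2 (adjusted p = 9.49e-04), 0.46 ± 0.089 for the joined row of ALDH4A1 (adjusted p = 0.00473) and 0.61 ± 0.118 for ALDH6A1. The groups did not overlap between their libraries for any of the 6 members, as for 42.7% of all genes tested in this comparison. Of all genes tested, 29.4% were called between the siRNAs. The ALDH1A1 call was lost in 11 of 19 settings.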

How the results depend on the processing

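The number of members called stayed within 1.5 times its value in all 19 settings, with ranges without 1 library of 7 to 9 for siCyclin K#1, 7 to 8 for siCyclin K#2 and 5 to 6 between the siRNAs, and of 1 to 1, 0 to 0 and 0 to 0 at the study's thresholds. Directions turned, the cause not being tested, under median-ratio rescaling for ALDH9A1 (-0.023) and ALDH18A1 (-0.028) between the siRNAs, under quantile normalization for ALDH1B1 with siCyclin K#1 (0.035) and ALDH16A1 between the siRNAs (0.105), and ALDH1A1 came to 0 there. Without 1 library they turned for ALDH1B1 with siCyclin K#1 (0.002 without scrambled replicate 1, range -0.056 to 0.002), and between the siRNAs for ALDH16A1 (without siCyclin K#1 replicate 2 or siCyclin K#2 replicate 1, range -0.02 to 0.006) and CCNK (without siCyclin K#1 replicate 3 or siCyclin K#2 replicate 2, range -0.121 to 0.016). Of the results that turned, ALDH1A1 between the siRNAs alone had passed as reported. Replicate numbers did not pair the libraries (same-numbered correlations -0.0711 to 0.0379), and with the replicate block 8 members were called with siCyclin K#1, 8 with siCyclin K#2 and 5 between the siRNAs; among the members the block removed the calls of ALDH2 with siCyclin K#1 (adjusted p = 0.0585) and ALDH1A1 between the siRNAs (adjusted p = 0.0790). Genes called at the study's thresholds with siCyclin K#1 numbered 983 as reported and 336 and 200 with pseudocounts of 0.5 and 1, with siCyclin K#2 409, 117 and 70, and between the siRNAs 322, 75 and 57; with a mean of at least 1 FPKM they numbered 474, 186 and 113. For the 27 other named genes these alternatives were chosen after seeing the data, and 8 of them lost, gained or turned a result in at least 1 setting. Depth limits ALDH1A2, ALDH1L1 and ALDH8A1, which were not tested.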
